A study of Mus musculus with 10 samples.

Results

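Cd44, Icam1, Il2ra, Cd38, Fas, Fcer2a, Cd24a and Il4ra encode surface proteins by which resting and activated B cells are commonly told apart. They were chosen by name with earlier results of these data known. Counts of these markers or of listed genes, set against all genes, are therefore descriptions and not independent tests. The 8 rows of these markers were taken from a table of 17658 genes that covers 10 libraries. The series asked which genes induced through the B cell antigen receptor differ with Nr4a1, an orphan nuclear receptor also called Nur77. B cells came from spleen and lymph node of C57BL/6 mice aged 10 weeks, of genotype Nr4a1+/+ (wild type) or Nr4a1-/- (knockout), and were enriched magnetically by removing other cells. Each genotype gave 1 library without an agent and 4 libraries, lettered A to D, after 2 h of crosslinking the receptor with 10 µg/mL anti-IgM. The labels do not say whether letters stand for separate mice, so the p-values measure the spread between these libraries, which may be technical. The labels name no Cre or transgene, and every group shares the strain, age and enrichment.

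Engagement of the antigen receptor sets off kinase, calcium, NF-kB and MAP kinase signalling, and within hours a B cell changes the receptors and adhesion molecules it makes. CD44 binds hyaluronan and ICAM-1 binds the integrin LFA-1, so both bear on how a B cell holds on to matrix and to T cells. CD25, the product of Il2ra, is the alpha chain of the IL-2 receptor, and the product of Il4ra is the alpha chain of the IL-4 receptor. Fas is a death receptor. CD23 (Fcer2a) is the low-affinity IgE receptor of mature follicular B cells, CD24 is a lipid-anchored glycoprotein, and CD38 is an ectoenzyme that consumes NAD. These are transcript levels, and protein at the surface was not analysed here.

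Promoters are shown for the markers with the largest log2 differences between genotypes after anti-IgM. They let the start region of each be read beside its values. They are RefSeq windows of 250 bases before to 50 bases after the start, on the gene's strand, in GRCm38.p6; 7 of the 8 genes matched, with 9 windows. Capitals mark matches to the motifs searched. The Icam1 window is chr9:21015690-21015989 (plus strand), that of Cd44 is chr2:102901616-102901915 (minus strand) and that of Fas is chr19:34290409-34290708 (plus strand).
Icam1: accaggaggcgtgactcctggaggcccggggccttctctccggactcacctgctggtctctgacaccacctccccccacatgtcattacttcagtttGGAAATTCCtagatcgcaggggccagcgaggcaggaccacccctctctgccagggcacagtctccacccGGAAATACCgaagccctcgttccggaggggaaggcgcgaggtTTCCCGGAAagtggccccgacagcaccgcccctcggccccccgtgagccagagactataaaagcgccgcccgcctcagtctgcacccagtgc
Cd44: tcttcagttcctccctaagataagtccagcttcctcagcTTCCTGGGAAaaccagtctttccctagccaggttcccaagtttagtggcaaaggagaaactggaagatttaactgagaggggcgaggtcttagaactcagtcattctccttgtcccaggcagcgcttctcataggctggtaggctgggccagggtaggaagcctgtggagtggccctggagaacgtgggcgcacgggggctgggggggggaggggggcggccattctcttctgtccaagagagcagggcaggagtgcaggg
Fas: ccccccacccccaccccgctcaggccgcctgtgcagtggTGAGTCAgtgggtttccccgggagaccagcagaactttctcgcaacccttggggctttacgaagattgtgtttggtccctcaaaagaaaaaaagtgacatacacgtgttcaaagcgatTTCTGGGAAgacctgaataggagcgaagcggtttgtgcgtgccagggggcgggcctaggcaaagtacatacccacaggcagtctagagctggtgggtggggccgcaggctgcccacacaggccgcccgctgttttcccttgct

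The Icam1 window held 2 matches to an NF-kB motif (GGNNTTTCC, on either strand), GGAAATTCC and GGAAATACC, beginning 153 and 84 bases before the start. It also held the STAT motif TTCNNNGAA as TTCCCGGAA, 42 bases before the start. These distances are from the RefSeq start. In the GENCODE annotation Icam1 begins at 21015985, close to the window's end at 21015989, so distances from that start would differ. The Cd44 window held the longer-spaced STAT6 motif TTCNNNNGAA as TTCCTGGGAA, 211 bases before the start. The Fas window held the AP-1 motif TGANTCA as TGAGTCA, 211 bases before the start, and a TTCNNNGAA match, TTCTGGGAA, 93 bases before it. No match overlapped another. Windows not shown held matches too. Those of Fcer2a, which was not called between genotypes, held the STAT6 and AP-1 motifs, and that of Il4ra held the NF-kB motif. Of all 32851 windows in the table, 5.82% held the NF-kB motif, 8.30% TTCNNNGAA, 6.95% TTCNNNNGAA and 7.81% the AP-1 motif, so each is common. The EGR motif GCGNGGGCG, held by 5.55% of all windows, and AAAGGTCA, the element read by NR4A receptors, held by 1.51%, had no match in any of the 9 windows. A match is a description of letters, and no match says only that these letters are not in the window.

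Levels are in FPKM, which scale fragments to transcript length and library size and so carry no read depth; depth was not recovered here. The summed FPKM of listed genes was 557214 to 571784 in the stimulated libraries, and 674961 and 595500 in the unstimulated wild-type and labelled knockout ones. Nr4a1 was 126 FPKM in both unstimulated libraries, and after anti-IgM its mean was 808 ± 47.2 in wild type against 702.1 ± 44.6 in the other genotype (SD, n = 4 each). This log2 difference of -0.20 passed the adjusted threshold of 0.05 (limma adjusted p 0.0432), but the call was lost under 10 of 19 alternative settings. These gene-level values do not check the labels, so the second genotype is called "labelled knockout" throughout. All 8 B cell markers, among them Ms4a1, Cd79a, Cd79b, Pax5, Ebf1, Cd22 and Blk, were detected in every library. Their sum was 4324 FPKM in wild type and 4121 in the labelled knockout before stimulation, and 1793 to 1920 after it, and 6 of the 8 were called lower with stimulation. Blk went the other way, from 241 FPKM in wild type and 252 in the labelled knockout to 413 to 424 after stimulation. Ebf1 went from 51.3 and 64.8 FPKM to 65.1 to 83.2. Neither was called higher. In bulk samples, fewer cells of a type and less RNA per cell cannot be told apart.

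Without stimulation the wild-type library ranked the markers, per length, as Fcer2a, Cd24a, Il4ra, Cd38, Cd44, Icam1, Il2ra and Fas, from 284.8 to 7.37 FPKM. After anti-IgM Il2ra, Icam1 and Cd44 stood above Il4ra and Cd38 in both genotypes, while Fcer2a and Cd24a stayed on top and Fas at the bottom. In stimulated wild-type libraries the ranges of Icam1 and Cd44 overlapped, so their order is not resolved, and no other neighbours overlapped. In the stimulated libraries labelled knockout no neighbours overlapped, and Icam1 stood above Il2ra.

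**Figure D1:**
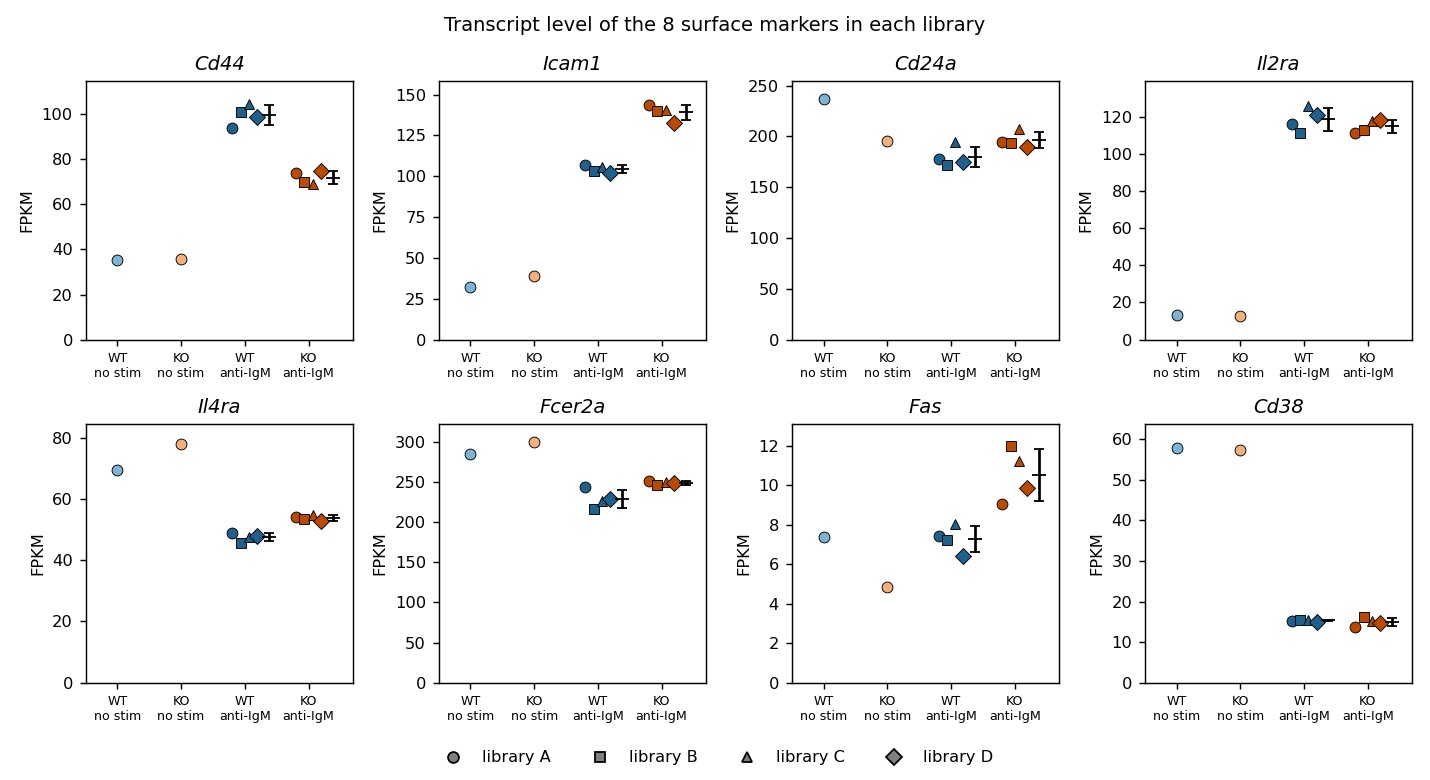
Transcript level (FPKM, vertical axis from 0) of the 8 surface markers in every library; points are libraries, marker shapes are letters, and bars are mean ± SD of the 4 stimulated libraries of a genotype. Cd44 sits at 94.0 to 105 FPKM in stimulated wild type and 69.0 to 74.8 in the labelled knockout, whereas for Icam1 the labelled knockout libraries are the higher ones.

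Each comparison was fitted with limma on log2(FPKM + 1) over the 10225 genes that averaged at least 1 FPKM, and all 8 markers passed this filter. For stimulation, fitted over both genotypes, a call needed a log2 change of 1 or more in size besides a Benjamini-Hochberg adjusted p below 0.05. Calls fell on 4 of the 8, against 20.3% of all tested genes: Il2ra, Icam1 and Cd44 rose (7.94% of all genes rose) and Cd38 fell (12.4% of all genes fell). The median gene shifted by -0.17 on the log2 scale. The split was 812 higher and 1266 lower, and became 1102 higher and 1071 lower after rescaling to TPM, 1155 and 801 with median-of-ratios scaling and 965 and 921 with quantile normalization.

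Between genotypes after anti-IgM, 4 of 8 markers passed an adjusted p under 0.05 (9.72% of all genes did). Icam1, Fas and Il4ra were higher in the labelled knockout (3.91% of all genes) and Cd44 was lower (5.81%). The split over all genes was 400 higher and 594 lower, and 559 and 377 with median-of-ratios scaling, or 478 and 438 with quantile normalization. Values of the 4 and 4 libraries did not overlap for 5 markers, the called ones and Fcer2a; this held for 15.5% of all genes. The exact permutation test over all 70 labellings gave its smallest possible p, 0.0286, for each of these 5.

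The difference in response, (labelled knockout after minus before) minus (wild type after minus before), rests on 1 unstimulated library per genotype, assumed to vary like the stimulated ones. It passed an adjusted p under 0.05 for Cd44, Fas and Cd24a, 3 of 8 markers, against 18.9% of all genes. Fas and Cd24a were positive (4.18% of all genes) and Cd44 negative (14.7%). The split of called genes was 427 positive and 1504 negative, and moved to 175 and 3455 with TPM, 443 and 849 with median-of-ratios scaling and 874 and 1207 with quantile normalization. All 3 markers kept their direction under each scaling.

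**Figure D2:**
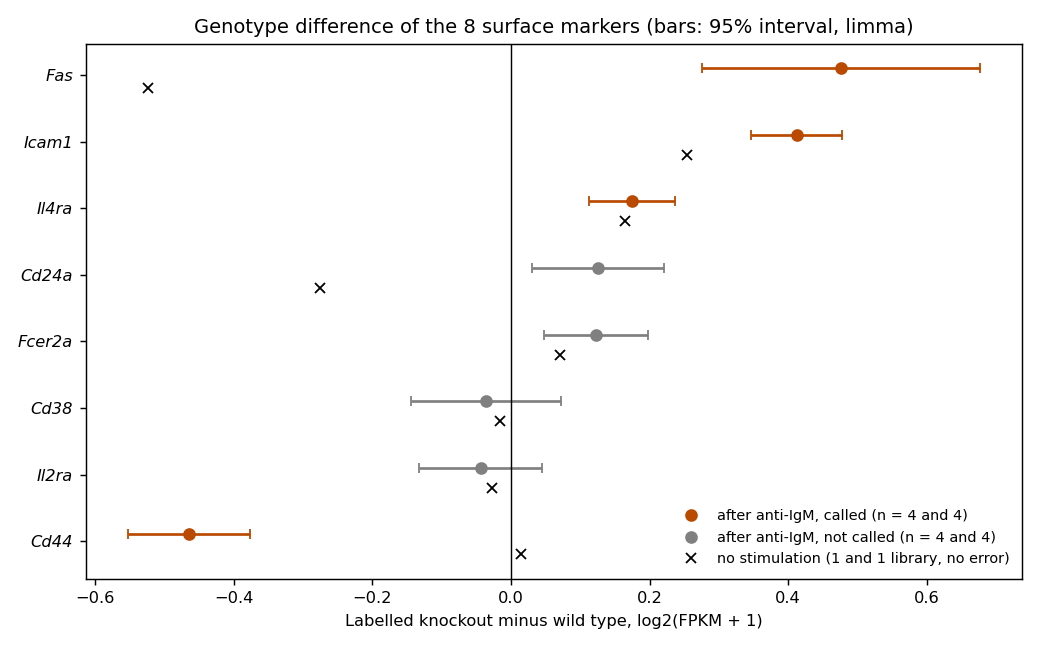
Labelled knockout minus wild type in log2(FPKM + 1) (horizontal axis) for each marker; circles with 95% limma intervals are the 4 and 4 stimulated libraries, orange where called, and crosses are the 1 and 1 unstimulated libraries with no error. For Fas, Cd24a and Cd44 the cross lies on the other side of 0 from the circle, for Cd44 only just (0.015), and Cd44 is the marker called lower.

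Cd44 rose less in the libraries labelled knockout. The gene (2:102811141-102901665 in GRCm38, minus strand, 19 exons in its longest coding transcript) makes the hyaluronan receptor. Before stimulation it read 35.2 FPKM in wild type and 35.6 in the labelled knockout. After anti-IgM, wild type read 94.0, 101, 105 and 98.8 FPKM in libraries A to D. The labelled knockout read 74.0, 70.2, 69.0 and 74.8. Every wild-type value exceeded every labelled knockout value, while the unstimulated pair were alike. Means were 99.7 ± 4.55 and 72.0 ± 2.81 (SD, n = 4 each), a ratio of 72.2%, and the log2 difference was -0.46 (SE 0.0392, limma adjusted p 9.37e-05). Level rose 2.83-fold in wild type and 2.02-fold in the labelled knockout, and the responses differed by -0.48 log2 (SE 0.0882, limma adjusted p 0.00690). Without the wild-type unstimulated library the response over both genotypes was 0.99 log2, just under the size required.

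Icam1 was higher in the labelled knockout, the opposite of Cd44. The gene (9:21015985-21028817, plus strand, 7 exons) encodes ICAM-1, ligand of LFA-1. The unstimulated libraries read 32.4 FPKM in wild type and 38.8 in the labelled knockout. After anti-IgM wild type read 107, 103, 105 and 102 FPKM in libraries A to D, and the labelled knockout 143, 139.7, 141 and 133. The groups did not overlap. Means were 104 ± 2.34 and 139 ± 4.56 (SD, n = 4 each), and the log2 difference was 0.41 (SE 0.0291, limma adjusted p 3.36e-05). Both genotypes responded, by 1.66 log2 in wild type and 1.81 in the labelled knockout, and the difference in response of 0.16 (95% interval 0.01 to 0.31) did not pass limma's adjusted threshold (adjusted p 0.128). The unstimulated libraries differed by 0.25 log2, more than 63.9% of tested genes in size, with no estimate of error. That 1 pair differed in the same direction as the stimulated libraries, and whether this exceeds variation between libraries was not tested.

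The partners of these adhesion molecules were followed in a list of 16 tested genes, of 24 in all. Between genotypes 1 was called higher and 3 lower, against 9.72% of all genes called, with a list median of -0.019 log2 against -0.024 over all genes tested. Itgb2, the beta chain of LFA-1, was lower in the labelled knockout (51.8 ± 0.50 and 42.4 ± 1.80 FPKM, SD, n = 4 each), and Icam2, a related ligand of LFA-1, was lower too (41.6 ± 1.49 and 35.2 ± 0.743). Itgal, its alpha chain, read 19.1 ± 0.645 and 20.5 ± 1.07 FPKM and did not pass. The sheddase Adam10, which cleaves CD44 and CD23, was higher (0.15 log2) and the CD74 ligand Mif lower (-0.15) in the labelled knockout. With stimulation Mif and Spp1, a CD44 ligand, rose by 1.09 and 1.48 log2; without the unstimulated library labelled knockout Spp1 rose by 0.57, under the size required.

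Il2ra had the steepest rise of the 8 markers, and no genotype difference was detected. The gene lies at 2:11642807-11693193 (plus strand, 8 exons) and encodes CD25. The unstimulated libraries held 13.1 FPKM in wild type and 12.8 in the labelled knockout. After anti-IgM wild type read 116, 111, 126 and 121 FPKM in libraries A to D, and the labelled knockout 111, 113, 118 and 118.5. The groups overlap, with wild-type libraries C and D above every labelled knockout value. The level rose 9.08-fold in wild type and 8.97-fold in the labelled knockout. Between genotypes the log2 difference was -0.044 (95% interval -0.13 to 0.04, limma adjusted p 0.582), so a difference as large as that of Cd44 lies outside the interval.

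Il4ra, by contrast, was a little higher in the labelled knockout after stimulation, and also in the single unstimulated pair. The gene is at 7:125552120-125579474 (plus strand, 11 exons). The unstimulated libraries read 69.4 FPKM in wild type and 78.0 in the labelled knockout. Stimulated wild type read 48.9, 45.7, 47.5 and 48.0 FPKM, and the labelled knockout 54.2, 53.5, 54.8 and 52.7. The groups did not overlap. The log2 difference was 0.17 (SE 0.0276, limma adjusted p 0.00354). In the unstimulated pair it was 0.17 with no estimate of error, more than only 44.6% of tested genes in size. With stimulation the level changed by -0.53 log2, below the size required (-0.67 to -0.30 over the alternatives), and the responses of the genotypes, -0.54 and -0.53, differed by 0.0095 (SE 0.0612).

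Of 16 tested partners of these receptors, out of 19, 2 were called higher and 2 lower between genotypes, against 9.72% of all genes called; the list median was 0.0078 log2, against -0.024 over all genes tested. Stat5a, the transcription factor that IL-2 receptor signalling activates, had the widest gap: 43.9 ± 1.80 FPKM in wild type and 23.4 ± 0.911 in the labelled knockout (SD, n = 4 each), a log2 difference of -0.88. Stat5b, its close paralog, was 22.0 ± 0.607 and 15.0 ± 0.517 FPKM, -0.52 log2; reads shared by the pair could be split between them by the authors' estimation. Il2rg, the shared gamma chain, was 0.13 log2 higher and the kinase Jak2 0.15 higher. Il2rb, the IL-2 receptor beta chain, and Il13ra1, the partner of the IL-4 receptor alpha chain in non-lymphoid cells, averaged under 1 FPKM and were not tested. With stimulation Irs2, an adaptor of the IL-4 receptor, Il7r, Stat5a and Il15ra rose, by 2.39, 2.37, 1.29 and 1.17 log2.

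**Figure D3:**
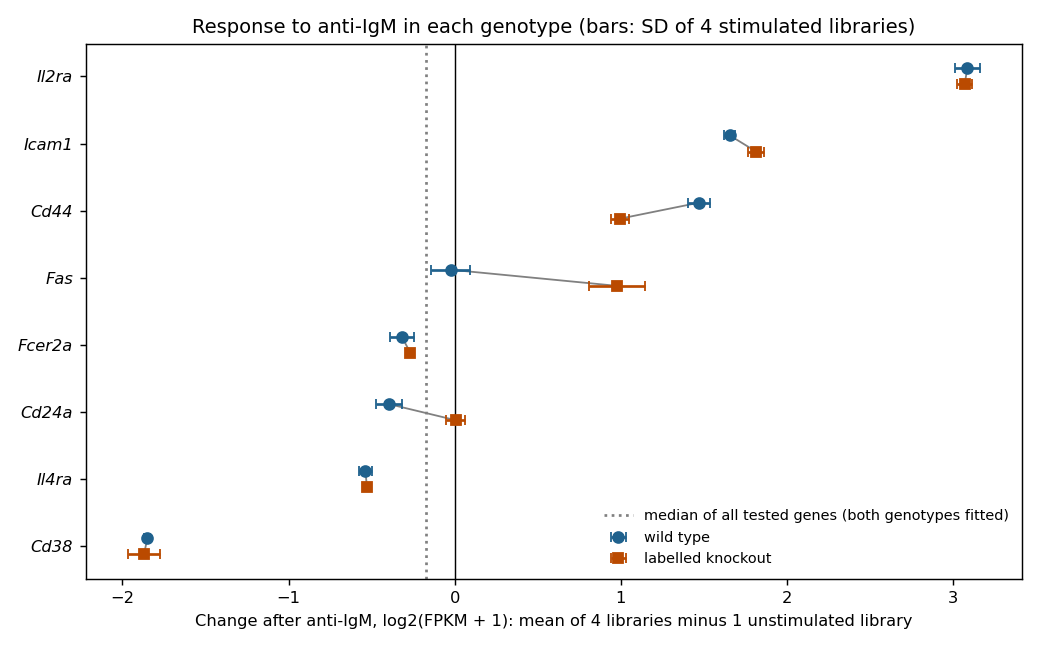
Response to anti-IgM (mean log2(FPKM + 1) of 4 stimulated libraries minus the 1 unstimulated library of that genotype; bars are the SD of the stimulated libraries) for wild type (circles) and labelled knockout (squares); the dotted line is the median of all tested genes. Il2ra lies near 3 in both genotypes, Cd38 near -1.9 in both, and the pairs of Cd44, Fas and Cd24a are the most apart.

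Fas showed the widest difference in response. The gene (19:34290666-34327772, plus strand, 9 exons) encodes the death receptor that FasL engages. It was the lowest marker, at 7.37 FPKM in wild type and 4.82 in the labelled knockout before stimulation. With anti-IgM, the wild-type libraries read 7.40, 7.23, 8.01 and 6.40 FPKM, and labelled knockout 9.02, 11.98, 11.2 and 9.85. All stimulated labelled knockout values exceed all wild-type values, which stayed near their unstimulated library. Means were 7.26 ± 0.664 and 10.5 ± 1.33 (SD, n = 4 each), a log2 difference of 0.48 (SE 0.0891, limma adjusted p 0.00886). The response was -0.023 log2 in wild type and 0.98 in the labelled knockout, and the difference, 1.0 (SE 0.200), passed limma's test (adjusted p 0.00969).

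The difference in the Fas response adds the gap after anti-IgM (0.48 log2) to an opposite gap before it. The 2 unstimulated libraries differed by -0.52 log2, more than 94.0% of tested genes in size, and each is a single measurement. The response over both genotypes, 0.48 log2, became -0.023 without the unstimulated library labelled knockout and 0.98 without that of wild type, so its direction depends on which is kept. The genotype difference after anti-IgM uses neither.

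The Fas pathway held 13 tested genes of 16; 2 were called higher and 2 lower between genotypes, against 9.72% of all genes called, with a list median of -0.013 log2 against -0.024. Cflar, the inhibitor of caspase-8 called c-FLIP, was 0.13 log2 higher. Faim3, the IgM Fc receptor, which this list includes, was 0.22 higher (0.72 higher in the unstimulated pair). The BH3 protein Bid (-0.17) and Faim (-0.23) were lower. The Cflar call is the least stable of these: it was lost under 10 of 19 alternatives. With stimulation Casp8, the caspase recruited to Fas, fell by 1.83 log2, and Cflar rose by 1.07. Fadd, the adaptor of Fas, was 2.91 ± 0.249 and 2.92 ± 0.120 FPKM after anti-IgM and did not pass between genotypes. Fasl averaged under 1 FPKM and was not tested.

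Fcer2a, the most abundant marker, changed by less than the size or p required in each comparison. The gene lies at 8:3681737-3694175 (minus strand, 12 exons). The unstimulated libraries read 284.8 FPKM in wild type and 299.2 in the labelled knockout. Stimulated wild-type libraries read 243, 216, 226 and 229 FPKM and labelled knockout 251, 246, 249 and 249. The groups do not overlap, but library A of wild type lies within 3 FPKM of library B of the labelled knockout. The log2 difference was 0.12 (SE 0.0336) and missed the threshold narrowly (limma adjusted p 0.0513); it was called in 4 of 19 alternatives, at adjusted p 0.00992 in limma without wild-type library A. With stimulation the change was -0.29 log2, below the size required, and ran from -0.45 to -0.056 over the alternatives.

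Around CD23, 9 of 13 listed Fc receptor and CD23 partner genes were tested, and 2 were called higher and 2 lower between genotypes, against 9.72% of all genes called, with a median of -0.017 log2 against -0.024. Cr2, the complement receptor CD21 that binds CD23, was lower in the labelled knockout (44.3 ± 2.99 FPKM, against 63.9 ± 3.37; SD, n = 4 each), by -0.52 log2. Adam10 and Faim3, counted above, were the higher genes and Fcrl1 (-0.15) the other lower one. With stimulation Fcgr2b, the inhibitory IgG receptor, Fcrla and Fcgrt fell, by 2.20, 2.13 and 1.41 log2. Fcgrt was 1.31 ± 0.429 and 1.01 ± 0.272 FPKM after anti-IgM (SD, n = 4 each), and with a pseudocount of 5 its change was -0.66, under the size required.

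Cd24a differed in its response, while its genotype difference after anti-IgM missed the threshold. The gene lies at 10:43578284-43584265 (plus strand, 2 exons). The unstimulated libraries read 237 FPKM in wild type and 195 in the labelled knockout. Stimulated, wild type read 178, 172, 195 and 175 FPKM and the labelled knockout 195, 194, 207 and 189. Library C of wild type lies inside the labelled knockout range. The log2 difference was 0.13 (SE 0.0421, 95% interval 0.03 to 0.22, limma adjusted p 0.106), and passed without wild-type library C (limma adjusted p 0.0214). The response was -0.40 log2 in wild type and 0.0054 in the labelled knockout, and the difference of 0.40 (SE 0.0941) passed (limma adjusted p 0.0183) but not with TPM (limma adjusted p 0.0799). This too uses the unstimulated pair, which differed by -0.28 log2, more than 67.8% of tested genes in size.

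Cd38 was the one marker called lower with stimulation, where a log2 change of 1 in size was required. The gene lies at 5:43868553-43912375 (plus strand, 8 exons). The unstimulated libraries read 57.9 FPKM in wild type and 57.2 in the labelled knockout. After anti-IgM wild type read 15.3, 15.6, 15.4 and 15.1 FPKM and labelled knockout 13.7, 16.2, 15.2 and 14.7. The groups overlap. What remained was 26.5% of the unstimulated level in wild type and 26.1% in the labelled knockout, and the change over both genotypes was -1.86 log2. The responses differed by -0.020 (95% interval -0.25 to 0.21). Between genotypes the log2 difference was -0.036 (95% interval -0.14 to 0.07, limma adjusted p 0.727).

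Genes of NAD metabolism, the substrate pathway of CD38, gave 2 called higher and 2 lower between genotypes among 13 tested of 18, against 9.72% of all genes called, with a median of -0.031 log2 against -0.024. Parp1, the main nuclear NAD-consuming enzyme of DNA damage, was lower in the labelled knockout (48.1 ± 1.34 FPKM, against 81.6 ± 2.85; SD, n = 4 each), by -0.75 log2. Nmnat3 was lower (-0.41) and the transhydrogenase Nnt higher (0.45, and 0.67 in the unstimulated pair). With stimulation Nampt, the rate-limiting NAD salvage enzyme, rose by 1.71 log2 as Pecam1, the ligand of CD38, fell by 3.13. Of the list of lipid-anchored surface proteins, the class of CD24, with its receptor Siglecg, 7 of 10 tested (16 listed) fell with stimulation, against 12.4% of all genes; the list median was -1.57 log2, against -0.17. Between genotypes 2 were called higher, against 3.91% of all genes, with a median of 0.030 log2 against -0.024. Cd55, which shields cells from complement, fell by 3.33 log2. It was higher in the labelled knockout by 0.50 before stimulation (225 and 319 FPKM) and by 0.54 after it, and the difference in response, 0.039, did not pass.

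**Figure D4:**
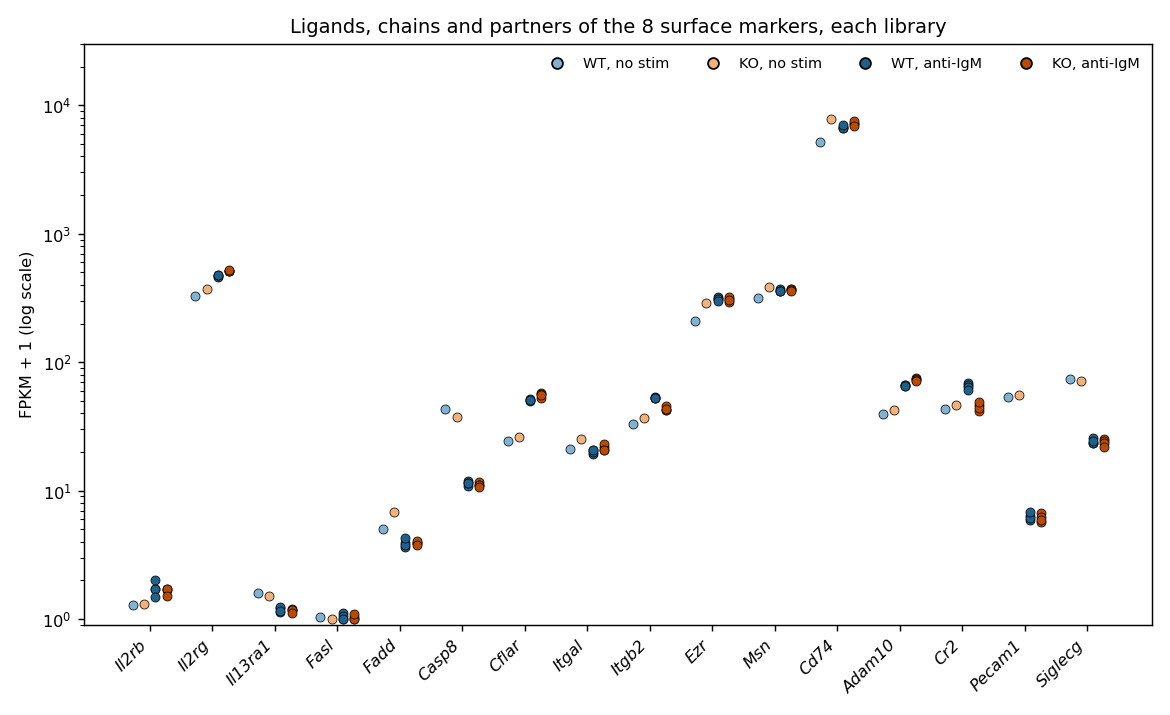
FPKM + 1 (log axis) in every library for chains, ligands and partners of the markers; light points are unstimulated, dark points stimulated, blue wild type and orange labelled knockout. Itgb2 and Cr2 are lower in the stimulated labelled knockout, and Casp8, Pecam1 and Siglecg (a CD24 receptor) are lower after anti-IgM in both genotypes.

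Other surface activation markers were followed in a list of 33 tested genes of 34. Between genotypes 8 were called higher and 4 lower, against 9.72% of all genes called, and the median was 0.044 log2 against -0.024. Slamf1, an adhesion receptor of the SLAM family, was 5.70 ± 0.438 FPKM in wild type and 11.9 ± 0.954 in the labelled knockout (SD, n = 4 each), 0.95 log2. The early activation antigen Cd69 was 260 ± 8.36 and 358 ± 11.2 FPKM, 0.46 log2, and the chemokine receptor Cxcr4 729 ± 20.8 and 487 ± 14.5 FPKM, -0.58. With stimulation 8 rose and 10 fell, against 20.3% of all genes called; the amino acid transporter Slc7a5 rose by 2.88 log2 and Icosl, a costimulatory ligand, fell by 3.49.

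Over the 10 libraries, the genes whose log2(FPKM + 1) followed each marker most closely were found among genes averaging at least 5 FPKM; all share libraries and the one unstimulated-to-stimulated step, and r is given as a description. Fbxo30 and Chst11 followed Cd44 (Pearson r 0.997 and 0.994), and Pdcd1lg2 and Adam10 followed Icam1 (0.999 each). Wbscr16 and Ldha followed Il2ra (0.999 each), and Igh and Gdi2 followed Cd38 (0.999 and 0.998). Ppp1r18 and Soat1 followed Il4ra (0.995 and 0.990), and Rint1 and Il4ra followed Fcer2a (0.980 and 0.974). Fas and Cd24a had no close match: Mrpl47 and Paxbp1 reached 0.912 and 0.896 for Fas, and Cdc42 and Katna1 0.921 and 0.890 for Cd24a.

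Markers of other cells moved with genotype in some lists, and their part in the results was not tested. Summed T cell markers (11 of 13 found) were 53.6 to 57.8 FPKM in stimulated wild type and 74.9 to 77.9 in the labelled knockout; Lck (43.7 to 48.1, and 64.4 to 66.9) and Cd5 made most of this, both genes that B cells can express, and Cd3e, a defining T cell gene, was at most 0.1 in any library. Before stimulation the sum was 20.5 in wild type and 28.0 in the labelled knockout. Immature B cell markers (6 of 7) were 64.7 to 70.2 and 41.6 to 47.9 FPKM, and 117 and 86.1 before stimulation. Among them Myb rose, from 15.6 and 13.1 before anti-IgM to 33.4 to 39.4 and 16.6 to 20.5 after it. Vpreb3 fell, from 82.4 and 55.6 to 20.8 to 21.7 and 15.5 to 19.4. Myeloid markers (11 of 12) were 41.1 to 142 and 25.3 to 105, highest in wild-type library B. Lyz2 read 114.95 FPKM there, and 52.96 and 82.57 in labelled knockout libraries A and B, against 15.81 and 17.36 in C and D. Without wild-type library B the log2 differences of Cd44, Icam1 and Fas were -0.46, 0.41 and 0.48. Labelled knockout libraries A and B stayed in that fit, so the part of myeloid cells was not tested by it. Germinal centre markers were 40.3 to 46.7 and 31.8 to 54.3, highest in labelled knockout library B; without it Fas differed by 0.42 (limma adjusted p 0.0201). Follicular markers, which include Fcer2a, were 1094 to 1184 and 1054 to 1138, and marginal zone markers 787 to 878 and 729 to 808. Natural killer markers were 2.29 to 3.54 and 1.71 to 2.41, erythroid markers 13.4 to 66.5 and 7.79 to 38, and stromal and endothelial markers 9.80 to 16.4 and 9.48 to 11.7. Before stimulation erythroid markers were 123 in wild type and 40.0 in the labelled knockout, and stromal and endothelial markers 62.4 and 61.9, mostly Pecam1 (52.2 and 54.6). The 2 unstimulated libraries enter every difference in response given for Cd44, Fas and Cd24a. Plasma cell markers were 1046 to 1111 and 1132 to 1191, of which Irf4 made 970 to 1040 and 1055 to 1113, after 124 and 115 before stimulation. Sdc1 was 5.90 to 6.83 and 6.17 to 6.34, after 13.9 and 17.0 before stimulation. Of 5 tested plasma cell markers, 2 were called higher and 1 lower with stimulation, against 20.3% of all genes called. Foxp3, Eomes, Mpo and Klf1 were listed at 0 in all 4 stimulated libraries labelled knockout. In stimulated wild type they were also at or near 0. Mpo was 0, Foxp3 0 to 0.01, Eomes 0.01 to 0.05 and Klf1 0 to 0.1 FPKM.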

How the data were processed

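Polyadenylated RNA of 10 libraries was sequenced with a stranded kit, per the labels' protocols. The authors deposited FPKM per gene, with 2 decimals. STAR 2.4, RSEM 1.2.14 and the mm10 build (GRCm38) are named in the submitters' processing notes; filters and the use of strand are not given in the sources used here. FPKM carry no read depth, so no count model was fitted. Each column matched 1 sample's description, and groups came from the labels.

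From these values, log2(FPKM + 1) was computed, and genes averaging 1 FPKM or more were fitted with limma 3.58.1 in R 4.3.3 (lmFit, eBayes with trend, two-sided, Benjamini-Hochberg adjusted); the code was tested on simulated data. Folds are ratios of FPKM, and log2 changes understate those of low genes. The stimulation fit had genotype as a term. The unstimulated pair and each genotype's response have no test.

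The members and lists were chosen with earlier results of these data known. Named genes are the members, Nr4a1, their direct partners, up to 3 called genes of largest change per list and comparison, and the 2 genes of highest correlation per member; a few named by it are not reported here. Listed genes were matched by symbol, older symbols included; Trbc1, Trbc2, Ncr1, Hba-a1, Ighd, Igll1 and Ly6g were not analysed here. Positions come from GENCODE M21 (GRCm38). Alternatives covered the pseudocount, level filter, scaling, variance model, letter block and leaving out each library.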

Additional observations from a re-analysis of the deposited data

Results flagged for a closer look

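The responses of the genotypes differed by the interaction test for 3 markers: Cd44 (-0.48 log2), Fas (1.0) and Cd24a (0.40); each uses 1 unstimulated library per genotype.

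Single libraries stood apart from the other 3 of their group in 6 of 130 sets of 4 libraries searched, where chance gives about 1 in 20, or 6.5. Il7r was 17.1 FPKM in stimulated wild-type library B, against 15.9 to 16.1 in the others. Spp1 was 19.1 FPKM in labelled knockout library D, against 23.7 to 24.2, and Il2rb was 0.51 there, against 0.68 to 0.71. Summed myeloid markers were 142 FPKM in wild-type library B, against 41.1 to 46.1. Summed erythroid markers were 66.5 FPKM in wild-type library A, against 13.4 to 18.7. Summed germinal centre markers were 54.3 FPKM in labelled knockout library B, against 31.8 to 34.6.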

How the results depend on the processing

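The genotype calls of Cd44, Icam1, Fas and Il4ra kept their direction and passed the limma threshold in all 19 alternatives, and 712 to 1040 genes were called. Fcer2a was called in 4 of them (adjusted p from 0.00992 to 0.118 over all) and Cd24a in 2 (0.0214 to 0.238). The genotype difference of Cd38 turned to 0.0045 log2 with median-of-ratios scaling and 0.0033 with quantile normalization, and ran from -0.073 to 0.0033 when single libraries were left out. With a pseudocount of 5, 1132 genes were called with stimulation in place of 2078. The stimulation change of Cd24a became 0.040 with median-of-ratios scaling and ran from -0.40 to 0.0054 when single libraries were left out; that of Fas ran from -0.023 to 0.98. With TPM, 3630 genes were called for the difference in response in place of 1931, and the values of Icam1, Fcer2a and Il4ra became -0.015, -0.12 and -0.16. Il2ra and Cd38 became 0.043 and 0.039 with median-of-ratios scaling, and 0.065 and 0.058 with quantile normalization, where Fcer2a became -0.011. When single libraries were left out, the difference in response ran from -0.047 to 0.012 for Il2ra, -0.057 to 0.019 for Cd38 and -0.0087 to 0.023 for Il4ra. The cause of these shifts was not tested. No pairing by letter was detected: same-letter deviations correlated from -0.12 to 0.045, and different-letter ones from -0.087 to 0.12. Such values cannot show whether the letters were paired in the design, which the labels do not state. With the letter as a replicate block, 740 genes were called between genotypes and 2039 with stimulation. FPKM hold no depth, so counting error is unknown.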
